A study of Mus musculus with 18 samples.

Results

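The Fc gamma receptors bind the constant part of immunoglobulin G on the surface of macrophages, neutrophils, and other leukocytes. Their 4 genes in the mouse, *Fcgr1*, *Fcgr2b*, *Fcgr3*, and *Fcgr4*, and the gene of the neonatal Fc receptor, *Fcgrt*, were followed across 18 tumors grown from K7M2 cells. These 5 genes were chosen by name, and all 5 were among the 20878 genes measured. K7M2 is an osteosarcoma line that came from a Balb/c mouse. The grafted cells carried lentiviral shRNA, either a control (ATRXCT) or against *Atrx* (ATRXKD), and 500000 of them were placed under the skin of each animal. There were 4 ATRXCT and 4 ATRXKD tumors in Balb/c mice, and 5 ATRXCT and 5 ATRXKD tumors in NSG mice, 1 tumor for each mouse. Balb/c mice are immunocompetent and syngeneic to the cells. NSG mice (NOD.Cg-Prkdc scid Il2rg tm1Wjl/SzJ) are NOD mice that lack T, B, and NK cells but keep macrophages and neutrophils. Per the study's methods, all mice were females of 6 to 8 weeks, and whole cages of 5 animals received 1 kind of cells. Since the labels give no cage, cage and knock-down cannot be told apart.

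Fc gamma receptors are of 2 kinds. FcγRI (*Fcgr1*), FcγRIII (*Fcgr3*), and FcγRIV (*Fcgr4*) are activating: they sit in the membrane with the common gamma chain (*Fcer1g*), whose ITAM motif recruits the kinase Syk and starts phagocytosis, the oxidative burst, and killing of antibody-coated cells. FcγRIIB (*Fcgr2b*) carries an inhibitory ITIM motif in its own tail and recruits the phosphatase SHIP1 (*Inpp5d*), which dampens these signals. FcRn, the product of *Fcgrt* together with beta-2 microglobulin (*B2m*), is not an effector receptor: it binds immunoglobulin G in acidic endosomes and returns it to the cell surface, which spares it from degradation.

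In the authors' mm10 annotation, 3 of the genes form a cluster on chromosome 1. *Fcgr2b* lies on the minus strand at chr1:170960558-170976071 (8 exons, 1547 nt, and 7 exons, 1406 nt, in its 2 transcripts), *Fcgr4* on the plus strand at chr1:171018926-171029761 (5 exons, 1250 nt), and *Fcgr3* on the minus strand at chr1:171051169-171059403 (5 exons, 1353 nt). *Fcgr1* is on the minus strand at chr3:96282909-96293969 (6 exons, 2589 nt) and *Fcgrt* on the minus strand at chr7:45092993-45103822 (7 exons, 1738 nt). *Fcgr2b* and *Fcgr3* encode nearly the same immunoglobulin-binding domains, so it was checked how far reads can separate them. The longest run of identical bases in their GENCODE transcripts has 129 bases, is coding in both genes, and covers the end of exon 3 and the start of exon 4 (chr1:170967980-170968081 and chr1:170966674-170966700 in *Fcgr2b*, chr1:171057691-171057792 and chr1:171054167-171054193 in *Fcgr3*). It is shown with the bases of exon 4 in capitals, as a stretch from which a read could belong to either gene.
*Fcgr2b* and *Fcgr3*, shared run: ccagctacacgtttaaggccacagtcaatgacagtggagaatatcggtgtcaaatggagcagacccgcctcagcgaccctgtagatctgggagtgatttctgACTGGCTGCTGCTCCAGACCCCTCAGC
Of all windows of 75 nt, the read length, 6.77% in the *Fcgr2b* transcript of 1462 nt and 7.38% in *Fcgr3* were also found in the other gene and in no further gene. These were 94 windows in each gene, more than the run of 129 bases holds, so some lie outside it and are not shown. For *Fcgr1*, *Fcgr4*, and *Fcgrt* the share was 0. The windows give the room for exchange between *Fcgr2b* and *Fcgr3*, and how many reads were shared out between them was not tested.

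The sequences before the start sites of *Fcgr1* and *Fcgr4* are shown because these genes, both activating receptors of myeloid cells, stood in opposite order of level in the 2 hosts. Each line holds the 250 bases before the start in RefSeq (GRCm38.p6, 5′ to 3′ on the gene's strand). Capitals mark matches, on either strand, to GAGGAA, the core bound by the myeloid factor PU.1. The regions are chr3:96293970-96294219 for *Fcgr1* and chr1:171018676-171018925 for *Fcgr4*.
*Fcgr1*: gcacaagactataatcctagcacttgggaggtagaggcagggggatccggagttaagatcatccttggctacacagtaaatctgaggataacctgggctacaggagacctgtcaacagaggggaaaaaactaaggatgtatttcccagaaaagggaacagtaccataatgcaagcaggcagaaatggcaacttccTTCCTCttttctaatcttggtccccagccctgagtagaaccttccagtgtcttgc
*Fcgr4*: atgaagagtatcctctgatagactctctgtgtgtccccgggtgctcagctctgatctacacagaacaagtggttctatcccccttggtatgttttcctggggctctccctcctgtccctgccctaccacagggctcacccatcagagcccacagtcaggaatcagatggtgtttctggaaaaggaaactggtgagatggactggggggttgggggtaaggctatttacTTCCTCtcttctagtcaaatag
A GAGGAA match was present on the opposite strand in both regions and in the same window of *Fcgr3*, and in 23.25% of the 32851 RefSeq promoter regions of the same length. No match was found in the same window of *Fcgr2b* or *Fcgrt*. These are matches of letters in the reference genome. The sequences of the Balb/c and NSG hosts were not examined, and binding was not measured.

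RNA was measured as FPKM, which divides the fragments of a gene by its transcript length and by the fragments mapped in the library, from ribo-depleted total RNA. All tests were run with limma on log2 (FPKM + 1), so that fold changes of low genes are understated, leaving out genes whose mean was below 0.1 FPKM, with Benjamini-Hochberg adjustment over all genes tested. A gene was called at an adjusted p under 0.05. Depth was estimated at 15150000 to 25200000 fragments per library (median 20300000). At this depth, a member gene corresponded to about 300 to 7563 fragments per tumor, far above the limit of 3 fragments (at most 0.182 FPKM), so that counting error was small beside the differences between tumors. The target of the shRNA, *Atrx*, was between 10.3 and 26.0 FPKM in ATRXCT and between 7.88 and 21.5 FPKM in ATRXKD tumors of Balb/c mice, and between 11.6 and 24.4 against between 8.42 and 16.4 FPKM in NSG mice. It was not called in either host (adjusted p = 0.999 and 0.0610 in limma), with a log2 fold change of −0.34 in Balb/c and of −0.74 in NSG mice (unadjusted p = 0.00551 in limma), where 4 of 5 ATRXKD tumors were below all ATRXCT tumors. T cell markers checked the hosts: the mean of 6 such genes was between 1.81 and 2.59 in Balb/c tumors and between 0 and 0.112 in NSG tumors on the log2 (FPKM + 1) scale. The Y-linked *Ddx3y* was at 0 in all Balb/c tumors and between 4.91 and 12.5 FPKM in NSG tumors, against the stated sex, so strain, immune status, and sex of the host cannot be told apart. In 6 libraries (mice 43, 45, 56, 60, 3, and 27), levels rose with transcript length by 0.1 or more log2 units per doubling of length, and for each comparison the values of the 5 genes that moved by over 1.5 times without them are given. Among these libraries, *Atrx* in Balb/c mice was at 26.0 and 20.7 FPKM in ATRXCT and at 21.5 and 17.3 FPKM in ATRXKD tumors. In the other Balb/c libraries it was at 13.4 and 10.3 FPKM in ATRXCT and at 7.88 and 9.11 FPKM in ATRXKD tumors.

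All 5 genes were well expressed. Over the 18 tumors, *Fcgr2b* had the highest mean (204.8 FPKM), above 98.0% of the genes detected, followed by *Fcgr3* (189 FPKM), *Fcgrt* (109 FPKM), *Fcgr1* (51.6 FPKM), and *Fcgr4* (47.9 FPKM, above 89.8% of genes). These levels are per kilobase, but still varied with transcript length between libraries, with slopes from −0.149 to 0.213. Comparisons between genes are therefore approximate. *Fcgr2b* and *Fcgr3* did not separate: *Fcgr2b* was the higher of both in 7 of 8 Balb/c tumors and in 3 of 10 NSG tumors. *Fcgr2b* was above *Fcgrt*, *Fcgr1*, and *Fcgr4* in all 18 tumors. The order of *Fcgr1* and *Fcgr4*, the genes with the lowest levels, differed between the hosts, as described further on.

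**Figure D1:**
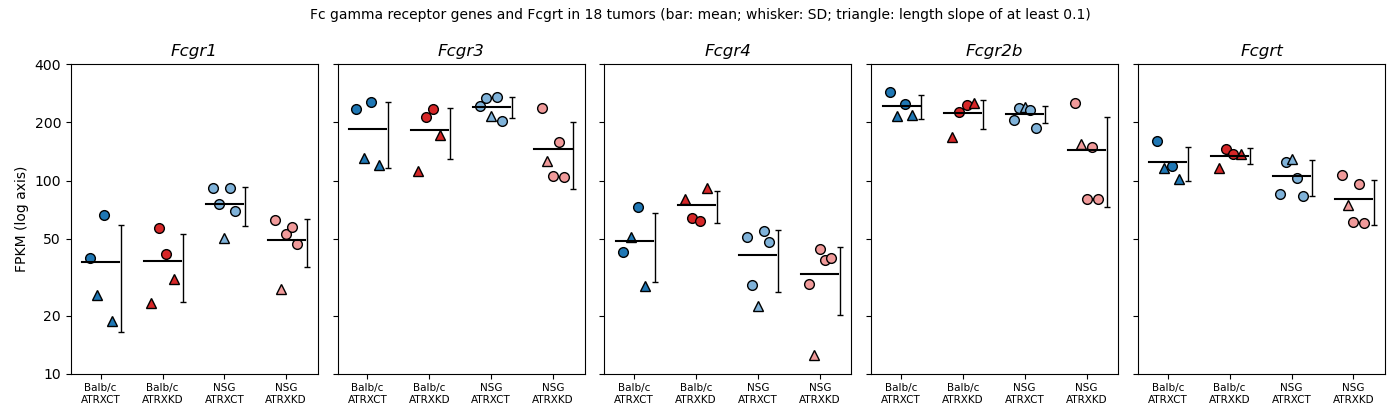
FPKM (log axis) of the 5 genes in every tumor, by host and grafted cells, with the mean as a bar, the SD as a whisker, and the 6 libraries with a length slope of at least 0.1 as triangles. NSG ATRXKD tumors had the lowest mean of all groups for 4 genes, *Fcgr1* being the exception with its lowest means in Balb/c mice, and triangles held the lowest *Fcgr1* value in each group.

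Among the activating receptors, *Fcgr1* encodes the high-affinity receptor. In Balb/c ATRXCT tumors it was at 39.9, 25.6, 66.5, and 18.7 FPKM (mean 37.7 ± 21.1, SD, n = 4), and in Balb/c ATRXKD tumors at 23.3, 56.8, 41.7, and 30.9 FPKM (38.2 ± 14.6, SD, n = 4). The Balb/c groups overlapped throughout. In NSG mice it was at 91.2, 75.3, 50.4, 92.1, and 69.3 FPKM in ATRXCT tumors (75.6 ± 17.2, SD, n = 5) and at 62.8, 27.4, 52.6, 57.3, and 46.9 FPKM in ATRXKD tumors (49.4 ± 13.6, SD, n = 5). Thus 4 of 5 NSG ATRXCT tumors were above every NSG ATRXKD tumor. In each of the 4 groups, the lowest *Fcgr1* value was in a library with a length slope of at least 0.1 (mice 45, 56, 3, and 27), and the part of the libraries in these levels was not tested.

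*Fcgr3* encodes the low-affinity activating receptor of myeloid and NK cells. It was at 235, 131, 254, and 120.2 FPKM in Balb/c ATRXCT tumors (185 ± 69.3, SD, n = 4) and at 111.5, 214, 234, and 172 FPKM in Balb/c ATRXKD tumors (183 ± 54.2, SD, n = 4). Its values in NSG ATRXCT tumors were 244, 269, 216, 272, and 203 FPKM (241 ± 30.8, SD, n = 5), and in NSG ATRXKD tumors 237, 126, 105.5, 158, and 104 FPKM (146 ± 55.3, SD, n = 5). In NSG mice, 4 of 5 ATRXKD tumors were below all ATRXCT tumors, and the ATRXKD tumor of mouse 26 was within their range.

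*Fcgr4* encodes the activating receptor of intermediate affinity that is restricted to monocytes, macrophages, and neutrophils. In Balb/c mice it was at 42.8, 50.9, 73.3, and 28.3 FPKM in ATRXCT tumors (48.8 ± 18.8, SD, n = 4) and at 80.7, 63.7, 62.0, and 91.4 FPKM in ATRXKD tumors (74.5 ± 14.1, SD, n = 4). Only the ATRXCT tumor of mouse 44 reached into the ATRXKD range. In NSG mice it was at 51.0, 28.7, 22.5, 54.9, and 48.0 FPKM in ATRXCT tumors (41.1 ± 14.5, SD, n = 5) and at 29.2, 12.5, 44.4, 38.7, and 39.5 FPKM in ATRXKD tumors (32.9 ± 12.7, SD, n = 5). These NSG groups overlapped widely, and the lowest values of both were in mice 3 and 27, whose libraries had high length slopes.

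*Fcgr2b*, the inhibitory receptor, varied little in 3 of the groups. It was at 287, 216, 249, and 218 FPKM in Balb/c ATRXCT tumors (243 ± 33.4, SD, n = 4), at 169, 226, 247, and 253 FPKM in Balb/c ATRXKD tumors (224 ± 38.3, SD, n = 4), and at 205.5, 237, 240.2, 233, and 188 FPKM in NSG ATRXCT tumors (221 ± 22.9, SD, n = 5). In NSG ATRXKD tumors it was at 251, 155, 80.0, 149, and 80.6 FPKM (143 ± 70.3, SD, n = 5). The tumor of mouse 26 had the highest value of all NSG tumors, whereas the other 4 NSG ATRXKD tumors were below every other tumor of the series.

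*Fcgrt*, the FcRn heavy chain, was at 160.2, 116.7, 119, and 102 FPKM in Balb/c ATRXCT tumors (125 ± 24.9, SD, n = 4) and at 116.1, 146, 138, and 137 FPKM in Balb/c ATRXKD tumors (134 ± 12.8, SD, n = 4). In NSG mice it was at 84.7, 125, 130.0, 103, and 83.0 FPKM in ATRXCT tumors (105 ± 22.0, SD, n = 5) and at 107, 74.8, 61.1, 96.6, and 60.5 FPKM in ATRXKD tumors (79.9 ± 20.9, SD, n = 5). Every Balb/c ATRXKD tumor was above every NSG ATRXKD tumor, while the ATRXCT tumors of both hosts overlapped.

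The first comparison asked whether the receptor genes changed with *Atrx* knock-down in immunocompetent mice. None of the 5 genes was called in Balb/c tumors, where 0.0068% of 14701 genes were called, 1 gene in all, and 609 genes were at an unadjusted p under 0.05. *Fcgr4* was nearest, at a log2 fold change of 0.66 (SE 0.27, unadjusted p = 0.0343, adjusted p = 0.999 in limma), which is 1.58-fold on the log2 (FPKM + 1) scale. ATRXKD was higher in 14 of the 16 pairs of an ATRXKD and an ATRXCT tumor. In the 2 tumors of each Balb/c group whose length slopes were under 0.1, the log2 fold change of *Fcgr4* was 0.16 (SE 0.24, adjusted p = 0.938 in limma). The other 4 genes had log2 fold changes between −0.12 and 0.12, with SE between 0.16 and 0.39, and between −0.18 and 0.04 without these libraries. Groups were not separate for any of the 5 genes, against 3.18% of all genes tested.

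In NSG mice, the same comparison gave a lower fitted level in ATRXKD tumors for all 5 genes, with a median log2 fold change of −0.62 against −0.0014 over all 14654 genes. *Fcgr3* alone was called, with a log2 fold change of −0.78 (SE 0.21, adjusted p = 0.0483 in limma), or 1.72-fold lower, beside 6.78% of all genes called in either direction. The values of *Fcgr2b* (−0.75, SE 0.28, adjusted p = 0.112), *Fcgr1* (−0.62, SE 0.23, adjusted p = 0.106), *Fcgrt* (−0.40, SE 0.19, adjusted p = 0.199), and *Fcgr4* (−0.35, SE 0.34, adjusted p = 0.552) did not pass in limma. For none of the 5 genes were the NSG groups separate, against 7.5% of all genes. The call of *Fcgr3* was close to the threshold and ended in 8 of the 10 fits that left out 1 tumor, all but those without the ATRXCT tumor of mouse 3 and the ATRXKD tumor of mouse 26 (adjusted p from 0.0102 to 0.132 in limma, log2 fold change −0.97 to −0.67). Without the ATRXCT tumor of mouse 3, *Fcgr1* was called as well (−0.76, adjusted p = 0.0395 in limma), and without the ATRXKD tumor of mouse 26 so was *Fcgr2b* (−0.98, adjusted p = 0.0214 in limma). In the 4 tumors of each NSG group with length slopes under 0.1, *Fcgr1* was called in its place (−0.57, adjusted p = 0.0230 in limma, against 0.0624 for *Fcgr3*, whose log2 fold change was again −0.78).

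**Figure D2:**
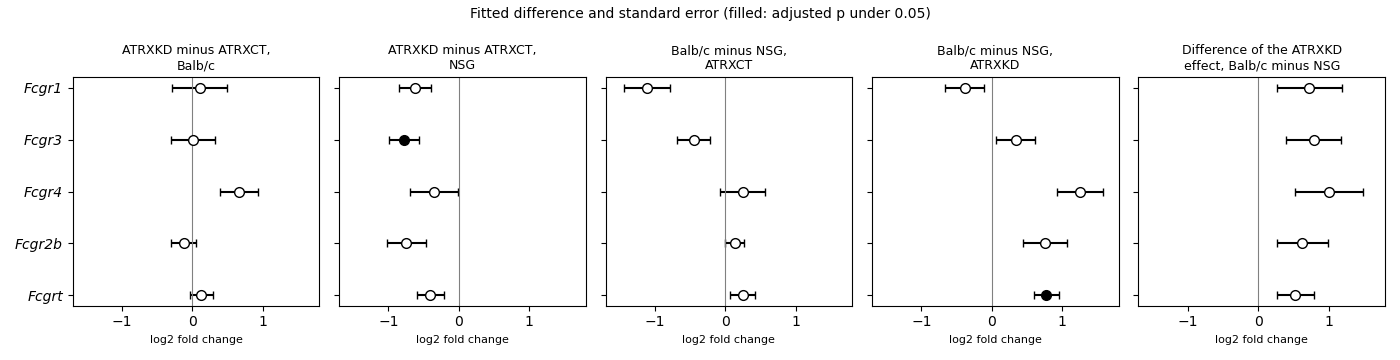
Fitted log2 fold change with its standard error for each gene in the 4 comparisons and for the difference of the ATRXKD effect between hosts, with filled points for an adjusted p under 0.05. *Fcgr3* in NSG mice and *Fcgrt* between ATRXKD tumors are the filled points, and all 5 NSG values lie to the left of 0.

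The hosts were then compared for each kind of cells, in tests that share their tumors with the ones above. Between ATRXCT tumors, none of the 5 genes was called, beside 3.18% of 14828 genes (472), and 2866 genes were at an unadjusted p under 0.05. *Fcgr1* was farthest from 0, with a log2 difference of −1.11 (Balb/c minus NSG, SE 0.32, adjusted p = 0.101 in limma), or 2.16-fold lower in Balb/c tumors. In 3 of the 4 Balb/c ATRXCT tumors it was below all 5 NSG ATRXCT tumors. Without the Balb/c ATRXCT tumor of mouse 44 it was called (−1.43, adjusted p = 0.0132 in limma), and with the length slope of each library as a covariate, a setting chosen after seeing the data, its difference was −0.58 (adjusted p = 0.0476 in limma). Without the libraries of high length slope it was −0.65 and not called (adjusted p = 0.203 in limma). The other log2 differences were −0.45 for *Fcgr3*, 0.13 for *Fcgr2b*, 0.25 for *Fcgr4*, and 0.25 for *Fcgrt*, with adjusted p between 0.311 and 0.664 in limma. Without the same libraries, the difference of *Fcgr3* was −0.0064, that of *Fcgr2b* 0.31, and that of *Fcgrt* 0.50 (adjusted p between 0.274 and 0.987 in limma), with none called. No gene of the 5 had separate groups, against 7.57% of all genes.

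Between ATRXKD tumors, *Fcgrt* was called, higher in Balb/c mice by 0.77 on the log2 scale (SE 0.18, adjusted p = 0.0439 in limma), or 1.71-fold, beside 3.64% of 14669 genes called. *Fcgr4* had the larger difference, 1.25 (SE 0.32, adjusted p = 0.0661 in limma), or 2.39-fold. For these 2 of the 5 genes the groups were separate, with all 4 Balb/c tumors above all 5 NSG tumors, against 8.13% of all genes. *Fcgr2b* (0.76, adjusted p = 0.266 in limma), *Fcgr3* (0.34, adjusted p = 0.591 in limma), and *Fcgr1* (−0.39, adjusted p = 0.537 in limma) did not pass. The *Fcgrt* call, too, was close to the threshold: it ended in 8 of 9 fits that left out 1 tumor, all but that without the NSG ATRXKD tumor of mouse 26 (adjusted p from 0.0169 to 0.112 in limma), with log2 differences between 0.69 and 0.89. Without the NSG ATRXKD tumor of mouse 27, *Fcgr4* was called in its place (0.95, adjusted p = 0.0164 in limma). Without the libraries of high length slope, the difference of *Fcgr4* was 0.73 (adjusted p = 0.0586) and that of *Fcgrt* 0.85 (adjusted p = 0.127) in limma, while *Fcgr3* was at 0.65 and *Fcgr1* at −0.16 (adjusted p = 0.288 and 0.563 in limma).

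Whether the knock-down acted differently in both hosts was tested as an interaction over all 18 tumors. It was positive for all 5 genes, from 0.53 for *Fcgrt* to 1.01 for *Fcgr4* (SE 0.48, unadjusted p = 0.0524), and called for none (adjusted p between 0.493 and 0.635 in limma). Of 14803 genes, 0.0% were called, with 1527 at an unadjusted p under 0.05. Without the libraries of high length slope, the values were between 0.35 and 0.65, that of *Fcgr4* being 0.40. A difference of the effect between Balb/c and NSG mice was therefore not shown for any receptor gene.

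The levels of *Fcgr1* and *Fcgr4* stood in opposite order in the hosts, a pattern picked out after the values were seen and given without a test. *Fcgr4* was above *Fcgr1* in all 8 Balb/c tumors, by 0.101 to 1.75 on the log2 (FPKM + 1) scale. In all 10 NSG tumors *Fcgr1* was above *Fcgr4*, by 0.239 to 1.36. Of the 10 pairs that the 5 genes form, this was the only pair whose difference did not overlap between hosts. The share of all gene pairs with such a difference was not counted. Reads of both hosts were aligned to the same mm10 reference, and whether strain differences in sequence changed these levels was not tested. Of single genes, 7.57% were separate between hosts in ATRXCT tumors and 8.13% in ATRXKD tumors. With the trend along transcript length removed from each library, the difference still did not overlap between hosts (*Fcgr1* minus *Fcgr4* from −1.97 to −0.0378 in Balb/c and from 0.275 to 1.45 in NSG tumors).

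The activating receptors were also set against the inhibitory receptor, as the mean log2 (FPKM + 1) of *Fcgr1*, *Fcgr3*, and *Fcgr4* minus that of *Fcgr2b* in each tumor. The sign of this value follows from its make-up, since it averages the 2 genes of lowest level with *Fcgr3*, so only its differences between tumors are read. It averaged −1.87 ± 0.50 in Balb/c ATRXCT (SD, n = 4), −1.49 ± 0.16 in Balb/c ATRXKD (SD, n = 4), −1.30 ± 0.40 in NSG ATRXCT (SD, n = 5), and −1.14 ± 0.76 in NSG ATRXKD tumors (SD, n = 5). All 4 pairs of groups compared overlapped. The NSG ATRXKD tumors were spread the most, from −2.10 to −0.35, and those of mice 28 and 30, with *Fcgr2b* at 80.0 and 80.6 FPKM, had the highest values. As the summed FPKM of the 3 activating genes over that of *Fcgr2b*, a ratio added after the values were seen, the groups averaged 1.10 ± 0.35 in Balb/c ATRXCT and 1.32 ± 0.13 in Balb/c ATRXKD tumors (SD, n = 4 each), and 1.63 ± 0.27 in NSG ATRXCT and 1.796 ± 0.639 in NSG ATRXKD tumors (SD, n = 5 each). The sum was above *Fcgr2b* in 16 of 18 tumors, and the groups again overlapped in all 4 comparisons.

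**Figure D3:**
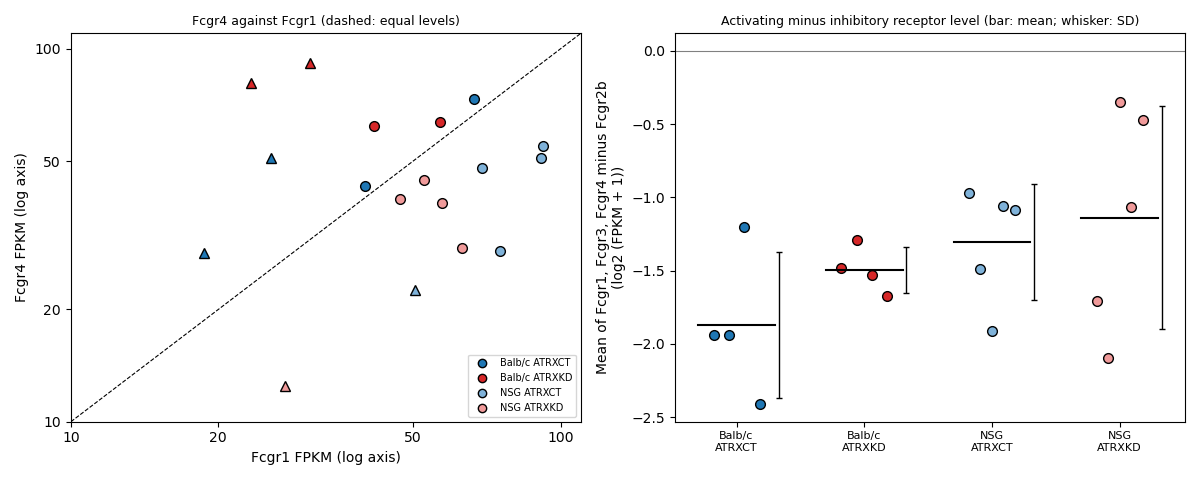
Left, *Fcgr4* against *Fcgr1* (FPKM, log axes) in each tumor, with equal levels as a dashed line and libraries of high length slope as triangles. Right, activating minus inhibitory receptor level per tumor on the log2 (FPKM + 1) scale, with the mean as a bar and the SD as a whisker. All 8 Balb/c tumors lie above the dashed line and all 10 NSG tumors below it, and the values on the right overlap between all groups compared.

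The chains that pair with these or other immune receptors were read next. *Fcer1g*, the common gamma chain, was between 157 and 334 FPKM in Balb/c ATRXCT, 157 and 283 in Balb/c ATRXKD, 237 and 351 in NSG ATRXCT, and 153 and 279 in NSG ATRXKD tumors. It was not called in any comparison, and came nearest to a call among NSG tumors (log2 fold change −0.58, SE 0.17, adjusted p = 0.0583). *B2m*, the partner of FcRn, was between 902 and 1462 FPKM in all tumors, with log2 fold changes between −0.25 and 0.08 in the 4 comparisons and no call. *Cd247*, the CD3 zeta chain of the T cell receptor, was higher in Balb/c tumors for both kinds of cells (adjusted p = 7.67e-05 for ATRXCT and 3.61e-06 for ATRXKD in limma). It was at 2.01 ± 0.66 FPKM in Balb/c ATRXCT tumors (SD, n = 4) and 0.0543 ± 0.0166 FPKM in NSG ATRXCT tumors (SD, n = 5). *Ms4a2*, the beta chain of mast cells, was higher in Balb/c ATRXCT tumors (1.37 ± 0.56 FPKM, SD, n = 4) than in NSG ATRXCT tumors (0.337 ± 0.242 FPKM, SD, n = 5; adjusted p = 0.0340 in limma). In Balb/c ATRXKD tumors *Ms4a2* was at 0.292 ± 0.231 FPKM (SD, n = 4), a log2 fold change of −0.86 against Balb/c ATRXCT that was not called (unadjusted p = 0.00122, adjusted p = 0.418 in limma). The genes of immunoglobulin G itself were not analysed here.

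Signalling genes downstream of the receptors showed few calls. Of 12 genes of ITAM signalling, 1 was called lower in NSG ATRXKD tumors and 2 were higher in Balb/c than in NSG ATRXKD tumors, with 0 calls in the other comparisons and medians between −0.31 and 0.35. The gene called in both was *Lcp2*, the adaptor SLP-76, at 17.0 ± 3.12 FPKM in Balb/c ATRXCT, 17.1 ± 2.25 in Balb/c ATRXKD (SD, n = 4 each), 12.4 ± 1.64 in NSG ATRXCT, and 8.04 ± 1.52 in NSG ATRXKD tumors (SD, n = 5 each). For the NSG tumors its value was −0.58 (SE 0.13, adjusted p = 0.0298 in limma), and Balb/c ATRXKD tumors were above NSG ATRXKD tumors by 1.01 (adjusted p = 0.00336 in limma). *Pik3cd*, a leukocyte PI3-kinase subunit, was higher in Balb/c ATRXKD than in NSG ATRXKD tumors by 0.77 (adjusted p = 0.00288 in limma). None of the 5 genes of ITIM signalling was called, and *Inpp5d*, which encodes SHIP1, was at 16.3 ± 6.15 FPKM in NSG ATRXCT and 11.2 ± 1.48 FPKM in NSG ATRXKD tumors (SD, n = 5 each).

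Of 11 phagocytic effectors, 3 were lower in NSG ATRXKD than in NSG ATRXCT tumors, with a list median of −0.52. They were *Cyba* (−0.80, adjusted p = 0.0495 in limma) and *Ncf4* (−0.76, adjusted p = 0.0280 in limma), both subunits of the phagocyte NADPH oxidase, and *Dock2* (−0.75, adjusted p = 0.0207 in limma), an activator of Rac. *Dock2* was also the only effector called between ATRXKD tumors of both hosts, higher in Balb/c mice by 0.84 (adjusted p = 0.00933 in limma). No effector was called in the Balb/c comparison of cells or between ATRXCT tumors. Among 6 partners of FcRn trafficking, 5 were tested and only *Snx4*, a sorting nexin, was called, higher in NSG ATRXKD tumors by 0.37 (adjusted p = 0.0211 in limma). Among 12 other Fc receptors and relatives, 6 or 7 passed the filter in each comparison, and only *Fcrl6* was called, at 0.607 to 3.72 FPKM in Balb/c ATRXCT and 0.794 to 3.40 FPKM in Balb/c ATRXKD tumors and listed at 0 in all 10 NSG tumors.

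Interferon gamma raises *Fcgr1* and *Fcgr4* in macrophages, so 12 genes of this response were read beside them. None was called in the Balb/c comparison of cells (median 0.30), and 1 was lower in NSG ATRXKD tumors, *Irf8* (−0.49, adjusted p = 0.0427 in limma), a transcription factor of monocytes. Between hosts, 2 were called higher in Balb/c ATRXCT tumors and 5 in Balb/c ATRXKD tumors, with 0 called lower and list medians of 0.26 and 0.65. In the same comparisons *Fcgr1* had the opposite sign, at −1.11 for ATRXCT and −0.39 for ATRXKD tumors. *Fcgr4* was at 0.25 and 1.25, and neither gene was called. The part of this response in the receptor levels was not tested. The 12 interferon gamma response genes did not all have the same sign. *Cxcl10*, not called, had lower means in Balb/c than in NSG mice, at 41.3 against 68.55 FPKM in ATRXCT and 55.9 against 70.4 FPKM in ATRXKD tumors. *Cxcl9*, a chemokine of this response, was at 11.7 ± 2.90 FPKM in Balb/c ATRXCT and 23.3 ± 16.7 FPKM in Balb/c ATRXKD tumors (SD, n = 4 each), against 2.28 ± 0.30 in NSG ATRXCT and 2.46 ± 1.13 FPKM in NSG ATRXKD tumors (SD, n = 5 each), and was called for both kinds of cells (adjusted p = 8.95e-05 and 0.00497 in limma). *Ifng* itself was likewise called for both (adjusted p = 0.000424 and 0.000989 in limma), at 0.879 ± 0.300 and 1.28 ± 0.52 FPKM in the Balb/c groups and, in NSG mice, listed at 0 in all ATRXCT tumors. *Gbp5*, an interferon-induced GTPase, was higher in Balb/c ATRXKD than in NSG ATRXKD tumors by 1.05 (adjusted p = 0.0423 in limma).

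In tumors, fewer cells of a type and less RNA per cell cannot be told apart, so marker genes of the cells that carry the receptors were given beside them. Macrophage genes were abundant, and the mean log2 (FPKM + 1) of 12 of them was between 6.75 and 7.24 in Balb/c ATRXCT, 6.54 and 7.16 in Balb/c ATRXKD, 6.90 and 7.55 in NSG ATRXCT, and 6.45 and 7.03 in NSG ATRXKD tumors. In NSG mice, 3 of the 12 were called lower in ATRXKD tumors, *Lyz2* (−0.97), *C1qb* (−0.74), and *C1qc* (−0.62), with adjusted p of 0.0400, 0.0268, and 0.0481 in limma and a list median of −0.48. *Csf1r*, the receptor that macrophages need to survive, had the opposite sign, at 253 ± 53.9 FPKM in ATRXCT and 321 ± 19.6 FPKM in ATRXKD tumors of NSG mice (SD, n = 5 each; 0.37, adjusted p = 0.114 in limma). None was called in the other comparisons. With this mean as a covariate, *Fcgr3* had a log2 fold change of −0.29 among NSG tumors (adjusted p = 0.597 in limma, with 0 genes called in all and 994 without it), *Fcgr2b* of 0.04, and *Fcgrt* of 0.24. The values of *Fcgr1* and *Fcgr4* under this setting were −0.71 and −1.02 (adjusted p = 0.372 and 0.337 in limma), farther from 0 than without the covariate. The difference of *Fcgrt* between ATRXKD tumors was 0.54 under this setting (adjusted p = 0.0660 in limma).

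**Figure D4:**
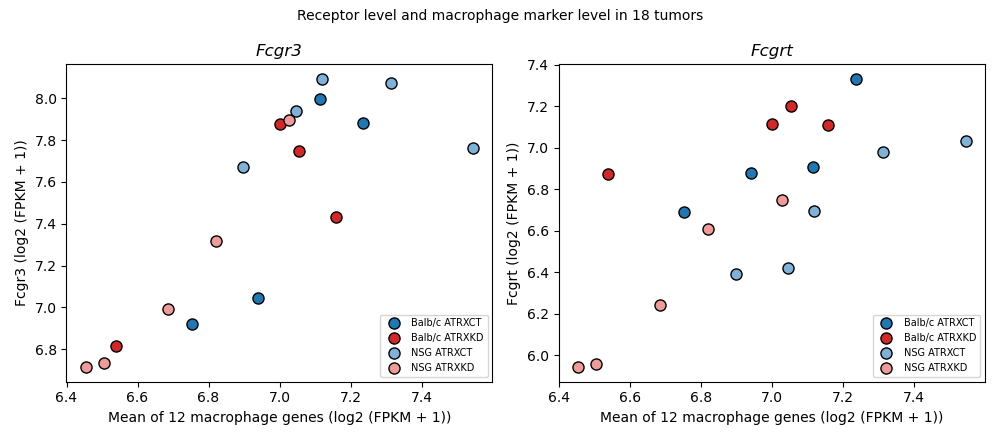
*Fcgr3* (left) and *Fcgrt* (right) against the mean of 12 macrophage genes in each of the 18 tumors, all on the log2 (FPKM + 1) scale. The lowest macrophage mean, the lowest *Fcgr3*, and the lowest *Fcgrt* value are all in NSG ATRXKD tumors, and *Fcgrt* minus the macrophage mean is higher in every Balb/c tumor (lowest −0.207) than in every NSG tumor (highest −0.212).

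Relative to the macrophage mean, *Fcgrt* was separate between the hosts for both kinds of cells, as were 6.67% of all genes for ATRXCT and 6.16% for ATRXKD tumors on this scale. It stood at −0.0588 ± 0.124 in Balb/c ATRXCT and 0.137 ± 0.158 in Balb/c ATRXKD tumors (SD, n = 4 each), against −0.480 ± 0.109 in NSG ATRXCT and −0.399 ± 0.148 in NSG ATRXKD tumors (SD, n = 5 each). *Fcgr2b* was separate between hosts in ATRXCT tumors (0.908 ± 0.091 against 0.603 ± 0.144) and overlapped in ATRXKD tumors. The levels of *Fcgr1*, *Fcgr3*, and *Fcgr4* relative to the macrophage mean overlapped in all 4 comparisons. These values are descriptions without a test.

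Marker genes of other cells, only some of which bear these receptors, were read as follows. Of 7 neutrophil genes, 2 were higher in Balb/c ATRXKD than in NSG ATRXKD tumors, *S100a9* (1.54, adjusted p = 0.0367 in limma) and *S100a8* (1.53, adjusted p = 0.0109 in limma), and 0 were called elsewhere. The neutrophil mean was between 3.11 and 3.95 in Balb/c ATRXKD and between 2.22 and 3.09 in NSG ATRXKD tumors on the log2 (FPKM + 1) scale. None of the 6 monocyte and 6 dendritic cell genes was called in any comparison, their means being between 2.58 and 3.97 and between 0.879 and 1.85. All 6 NK cell and all 6 T cell genes were higher in Balb/c tumors for both kinds of cells, and the NK mean was between 2.27 and 3.73 in Balb/c tumors and between 0.117 and 0.292 in NSG tumors. Of 6 B and plasma cell genes tested, 2 were called higher in Balb/c tumors for each kind of cells, with means between 0.498 and 1.17 in Balb/c and between 0.287 and 0.613 in NSG tumors. Of 6 mast cell genes, 3 were higher in Balb/c than in NSG ATRXCT tumors (means between 4.10 and 5.12 against between 2.06 and 3.83). With knock-down in Balb/c mice none was called, but the mast cell list had a median log2 fold change of −1.63, with means between 2.83 and 3.86 in ATRXKD tumors. *Tpsb2*, a mast cell tryptase, went from 56.8 ± 26.6 to 12.9 ± 4.96 FPKM (SD, n = 4 each; unadjusted p = 0.000189, adjusted p = 0.286 in limma), and *Cpa3*, a mast cell protease, from 39.5 ± 18.9 to 9.95 ± 3.55 FPKM (SD, n = 4 each; unadjusted p = 0.00036, adjusted p = 0.311 in limma). The means of *Cma1* and *Mcpt4* were lower as well, at 13.3 against 42.1 and 14.5 against 47.1 FPKM. The mast cell genes did not all move alike: *Kit* went from 4.66 ± 1.71 to 4.28 ± 2.29 FPKM, and *Hdc* had a higher mean with knock-down, 6.82 ± 2.67 against 6.04 ± 1.32 FPKM (SD, n = 4 each). The list median was 0.57 with knock-down in NSG mice, −0.50 between ATRXKD tumors, and −2.385 for the interaction, with 0 called. Of 8 endothelial genes, 2 were higher in NSG ATRXKD than NSG ATRXCT tumors and 1 was higher in Balb/c than NSG ATRXCT tumors, with means between 1.63 and 3.63. Their median log2 fold change with knock-down was 0.50 in Balb/c and 0.66 in NSG mice. Between hosts (Balb/c minus NSG) it was 0.56 for ATRXCT and 0.52 for ATRXKD tumors. None of the 5 or 6 osteosarcoma genes that could be tested was called (means between 3.14 and 3.84). The part of these cells in the receptor levels was not tested.

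The genes whose levels were most like each receptor's were taken from 12176 genes whose mean reached 1 FPKM, by Pearson's r over the 18 tumors, which share libraries, depth, and length slopes. For *Fcgr3* they were *Lyz2* (r = 0.98), *Ccr1*, *Tyrobp*, *Tfec*, and *Cyba* (r = 0.95), genes of macrophages and other myeloid cells, and r was 0.94 or more for each after the 4 group means were removed. For *Fcgr2b* they were *Scamp5* (r = 0.95), *Chp2*, *Apoe*, *Trf*, and *Cd33* (r = 0.90), with 0.80 to 0.94 after removal. For *Fcgr4* they were *Fam26f* (r = 0.96), *Fgl2*, *Spic*, *AW112010*, and *Tgtp2* (r = 0.87), with 0.79 to 0.96 after removal. *Tgtp2* is an interferon-induced GTPase, and *Spic* encodes a transcription factor of iron-recycling macrophages. For *Fcgr1* they were *Ctsh* (r = 0.98), *Psmc6*, *Atg4a*, *Ubl5*, and *Ccdc53* (r = 0.95), with 0.92 to 0.96 after removal, and for *Fcgrt* they were *Ubash3b* (r = 0.93), *Rps6ka1*, *Rinl*, *Rcsd1*, and *Agtrap* (r = 0.91), with 0.85 to 0.90 after removal.

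Among the receptors themselves, r after removal of the group means was 0.81 for *Fcgr2b* and *Fcgrt*, 0.77 for *Fcgr2b* and *Fcgr3*, 0.75 for *Fcgr1* and *Fcgr3*, and 0.60 for *Fcgr1* and *Fcgr4*. It was −0.33 for *Fcgr2b* and *Fcgr4*, which lie 42855 bp apart by their starts, and 0.08 for *Fcgr3* and *Fcgr4*, 40477 bp apart. With *Fcer1g*, the chain the activating receptors need at the surface, it was 0.94 for *Fcgr1*, 0.91 for *Fcgr3*, 0.49 for *Fcgr2b*, 0.45 for *Fcgrt*, and 0.42 for *Fcgr4*. The activating receptors thus did not all have higher values than the others. In each group, the lowest *Fcgr1* and the lowest *Fcer1g* value were in the same library of high length slope (mice 45, 56, 3, and 27). The part of the slopes in these r values was not tested.

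**Figure D5:**
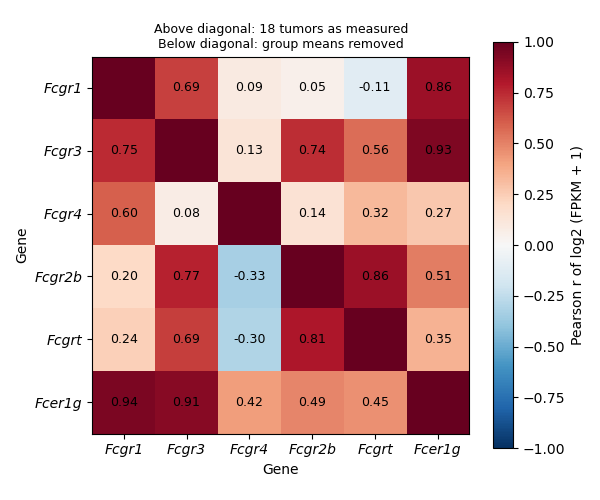
Pearson's r of log2 (FPKM + 1) between the 5 genes and *Fcer1g* over 18 tumors, as measured above the diagonal and with the 4 group means removed below it. *Fcgr1* and *Fcgr3* have the highest values with *Fcer1g*, and below the diagonal the values under 0 are those of *Fcgr4* with *Fcgr2b* and *Fcgrt*.

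Genes near the receptors were read for changes along the locus. Within 100 kb of the *Fcgr2b* start, *Fcrla*, *Fcrlb*, and *Dusp12* were tested beside the receptors, and within 100 kb of the *Fcgr3* start also *Cfap126* and *Sdhc*. None of these was called in any comparison. The same held for the 11 tested neighbours of *Fcgr1*, most of them histone genes. Near *Fcgrt*, 1 gene of 14 or 15 tested was called, *Rcn3*, which encodes a calcium-binding protein of the endoplasmic reticulum and starts 11609 bp away. It was higher in NSG ATRXKD than in NSG ATRXCT tumors by 0.69 (adjusted p = 0.0151 in limma) and higher in Balb/c than in NSG ATRXCT tumors by 0.70 (adjusted p = 0.0190 in limma), while *Fcgrt* was at −0.40 and 0.25 in these comparisons.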

How the data were processed

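RNA-seq values of 18 K7M2 tumors were grouped by host and shRNA from the tumor labels. Per the study's methods and the submitters' processing notes, stranded ribo-depleted libraries were read as 75-nt pairs, aligned to mm10 with STAR 2.6.0c, cleared of reads under quality 20 and of PCR duplicates, and quantified over RefSeq genes with Cufflinks 2.2.1. The authors deposited log2 (FPKM + 1) values for 20970 entries, of which 92 spike-ins were left out. The deposited values fit base 2 (sums 1.06 to 1.09 times the known total, 8.09 to 10.8 with the natural log). Transcript coordinates were taken from the deposited annotation. Whole fragments were not recovered (35.5% to 39.9% of low values within 0.1 of a whole fragment, 20% by chance), so fragment numbers are estimates (fragment length 160 nt) and no count test was run. They cover counting error only.

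Groups were compared with limma 3.58.1 in R 4.3.3 (lmFit, eBayes with trend) on log2 FPKM plus a pseudocount of 1. Genes below a mean of 0.1 FPKM over the fitted tumors were dropped, and the interaction used all 18 tumors in 1 fit. The authors' notes name DESeq, which needs counts. The steps were tested on simulated data. P-values measure the spread between tumors of different mice. The members, gene lists, and tests were chosen with earlier results of these data known. Named genes are the 5 members, *Fcer1g*, *B2m*, and of each pathway list up to 3 called genes with the largest changes per comparison. Neighbours start within 100 kb of a member's start. Some items are not reported here. *Inpp5d*, *Ddx3y*, *Rcn3*, *Csf1r*, *Cxcl10*, *Tpsb2*, *Cpa3*, *Cma1*, *Mcpt4*, *Kit*, *Hdc*, the summed ratio, and the *Fcgr1* and *Fcgr4* pair were singled out after values were seen. Shared windows came from GENCODE transcripts, and promoters and motif matches from RefSeq regions, with Python 3.11.15.

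Alternatives were a pseudocount of 0.1, other filters, median-ratio scaling, quantile normalization, removal of the length trend, library weights with a robust prior, a fold threshold of 2, the macrophage mean as a covariate, a fit of all 4 groups, and leaving out each tumor. The length slope as a covariate and the omission of 6 libraries with slopes of at least 0.1 were chosen after seeing the data.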

Additional observations from a re-analysis of the deposited data

How the results depend on the processing

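No replicate numbers are shared between groups, and no paired analysis was possible because each tumor came from another mouse with a number of its own. Of 270 values of the 5 genes under settings other than leaving out 1 tumor, 241 kept their direction and their side of the threshold, as did 242 of 270 values with 1 tumor left out. The number of receptor genes called was 0 in Balb/c mice in every setting. In NSG mice it was 1, but 0 with no filter on low values, with the macrophage mean as a covariate, in a fit of all 4 groups, and with a fold threshold of 2, 3 with library weights, 2 with the length slope as a covariate, and 0 to 2 with 1 tumor left out. Between ATRXCT tumors it was 0, but 2 with library weights, 1 with the length slope as a covariate, and 0 to 1 with 1 tumor left out (mouse 44). Between ATRXKD tumors it was 1, but 0 with no filter, with a mean of at least 1 FPKM, with the macrophage mean as a covariate, without the 6 libraries of high length slope, and with a fold threshold of 2, 2 with the length trend removed, with library weights, and in a fit of all 4 groups, and 0 to 1 with 1 tumor left out. For the interaction it was 0, but 1 with library weights (*Fcgr1*). The weighted fits called 22 to 5414 of all genes, against 0 to 994 in the fits as reported, and 2483 in NSG mice with the length slope as a covariate. The cause of these moves was not tested.

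Values near 0 turned sign. In Balb/c mice, the log2 fold change of *Fcgr1* was −0.030 with the length slope as a covariate and −0.080 without the 6 libraries, and that of *Fcgr3* −0.049 with quantile normalization, −0.019 with the length trend removed, −0.097 with the slope as a covariate, and −0.13 without the 6 libraries. With 1 Balb/c tumor left out they ranged from −0.17 to 0.42 for *Fcgr1*, from −0.17 to 0.23 for *Fcgr3*, and from −0.19 to 0.0049 for *Fcgr2b*. With the macrophage mean as a covariate, *Fcgr2b* was at 0.037 and *Fcgrt* at 0.24 in NSG mice, and *Fcgr3* at −0.073 between ATRXKD tumors. With library weights, *Fcgr4* was at −0.058 between ATRXCT tumors. The genes lay far above 3 fragments in every tumor, and there were 4 or 5 tumors per group.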
